A study of Mus musculus with 12 samples.

Results

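The genes described here encode collagens, laminins and integrins, as measured in the hypothalamus of mice that drank water or alcohol. The members were all genes whose name in the array design had the form of a collagen chain (Col, a type and a chain number), a laminin chain (Lama, Lamb or Lamc with a number) or a numbered integrin chain (Itga or Itgb with a number). This rule found 70 of 27827 gene names, measured by 143 probes: 41 collagen, 10 laminin and 19 integrin genes. The rule used no measured value. A gene was represented by its brightest probe, the one with the highest mean over all arrays.

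Collagens are secreted proteins of 3 chains wound into a triple helix, which needs glycine at regular steps. Fibrillar collagens form tissue fibres, type IV collagens form the net of the basement membrane, and laminins, each a trimer of an alpha, a beta and a gamma chain, form another net beside it. Integrins are cell surface receptors of 1 alpha and 1 beta chain that bind these proteins. In the brain, basement membrane surrounds the blood vessels and underlies the meninges, and fibrillar collagen is made mainly by fibroblasts of the meninges and of vessel walls.

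Male mice of the outbred ICR strain entered the study at 3 weeks of age and, after adaptation to 2 drinking tubes, chose between water and 5% or 10% alcohol, or had water in both tubes. Drinking went on through adolescence into adulthood, to day 57 by the study's design text and with sacrifice on day 51 by the sample protocol. RNA of 9 water mice made 3 pools of 3 mice, and RNA of 19 alcohol mice made 9 pools, of 3 mice each for low drinkers and of 1 or 2 mice for high drinkers. The sample titles name 3 alcohol pools of low drinkers, 3 of early drinkers and 3 of late drinkers. The study describes 3 pools of mice that drank less and 6 of mice that drank more. The early and late pools were taken as the latter and are called high here. By the study's pooling, 2 of the 3 low pools mixed mice on both alcohol strengths and each of the other alcohol pools held mice on 1 strength, and the labels do not say which array held which. Each pool was hybridised with Cy3 to an Agilent 1-colour array, so a replicate is a pool and the spread between replicates is a spread between pools. The tissue was the hypothalamus as a whole, in which fewer cells of a type and less RNA per cell cannot be told apart.

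Levels are log2 signal minus the 75th percentile of the array's own probes, so a level of 0 is the array's 75th percentile. That percentile lay between 1512 and 1853 signal units, and 67.02 to 79.30% of spots per array were well above background. Levels of different probes cannot be ranked against each other. The 10 hypothalamic marker genes were well above background on all 12 arrays. Each of the 3 slides carried 4 arrays: slide 1 the water arrays and low 1, slide 2 low 2, low 3, early high 1 and early high 2, and slide 3 early high 3 and the late high arrays. The array low 2 stood apart in dim signal: its lower quartile was 63.2 signal units, against 22.3 to 34.0 on the others. Slide 1 was scanned on a different day from slides 2 and 3. Markers of the anterior pituitary also differed between pools, with a summed level between 1.70 and 3.63 in water, 2.79 and 3.23 in low, -0.13 and 1.75 in early high and 1.97 and 2.69 in late high drinkers.

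Of the 70 member genes, 60 were well above background on all 12 arrays: 36 collagens, 9 laminins and 15 integrins. Another 8 were so on some arrays: Itga1 and Itga5 on 11 of 12, Col4a5 on 10, Lamc3 on 9, Col4a3 on 5, Itgb6 on 4, and Itga2 and Col10a1 on 1. Col6a3, a chain of type VI collagen, and Col28a1 were well above background on none. Of the 70 genes, 67 had enough values to be tested, and Col10a1, Col6a3 and Col28a1 did not. Lamb1, the beta chain of the most widespread laminins, is listed on the array as Lamb1-1 and fell outside the naming rule. Its probe was well above background on all 12 arrays, with levels between -2.07 and -1.53. Col29a1 is the older name of Col6a5.

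Of 80 collagen probes, 3 lay wholly in the repeat that encodes the triple helix, with a glycine codon at every ninth base. They are printed 5′ to 3′ as the array files give them, with the glycine codons in capitals, because they show the sequence that the collagen members share and the rule did not use. The Col11a2 probe (mm9, chromosome 17, 34189287 to 34189453) held 6 glycine codons and was well above background on 7 arrays. The Col5a1 probe (chromosome 2, 27842243 to 27844666, across an intron) held 6 and was well above background on 12 arrays. The Col5a3 probe (chromosome 9, 20590066 to 20590795, also across an intron) held 7 and was well above background on 11 arrays. None of them was the brightest probe of its gene.
Col11a2: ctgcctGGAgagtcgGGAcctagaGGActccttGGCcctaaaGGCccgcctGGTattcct
Col5a1: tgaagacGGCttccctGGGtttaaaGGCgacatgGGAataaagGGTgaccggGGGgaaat
Col5a3: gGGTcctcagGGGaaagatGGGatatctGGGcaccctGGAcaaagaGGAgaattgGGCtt

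By group, the members differed little in level. The median over the 67 tested genes of the group mean, relative to each gene's mean over 12 arrays, was -0.01 in water, 0.08 in low drinkers, 0.01 in early high drinkers and -0.09 in late high drinkers. The single arrays of the late high group lay between -0.19 and -0.03, and those of the low group between 0.02 and 0.10. This order depended on the scaling: with quantile normalization the low group was at 0.01 and the late group at -0.05, and with no scaling the late group was at 0.03.

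**Figure D1:**
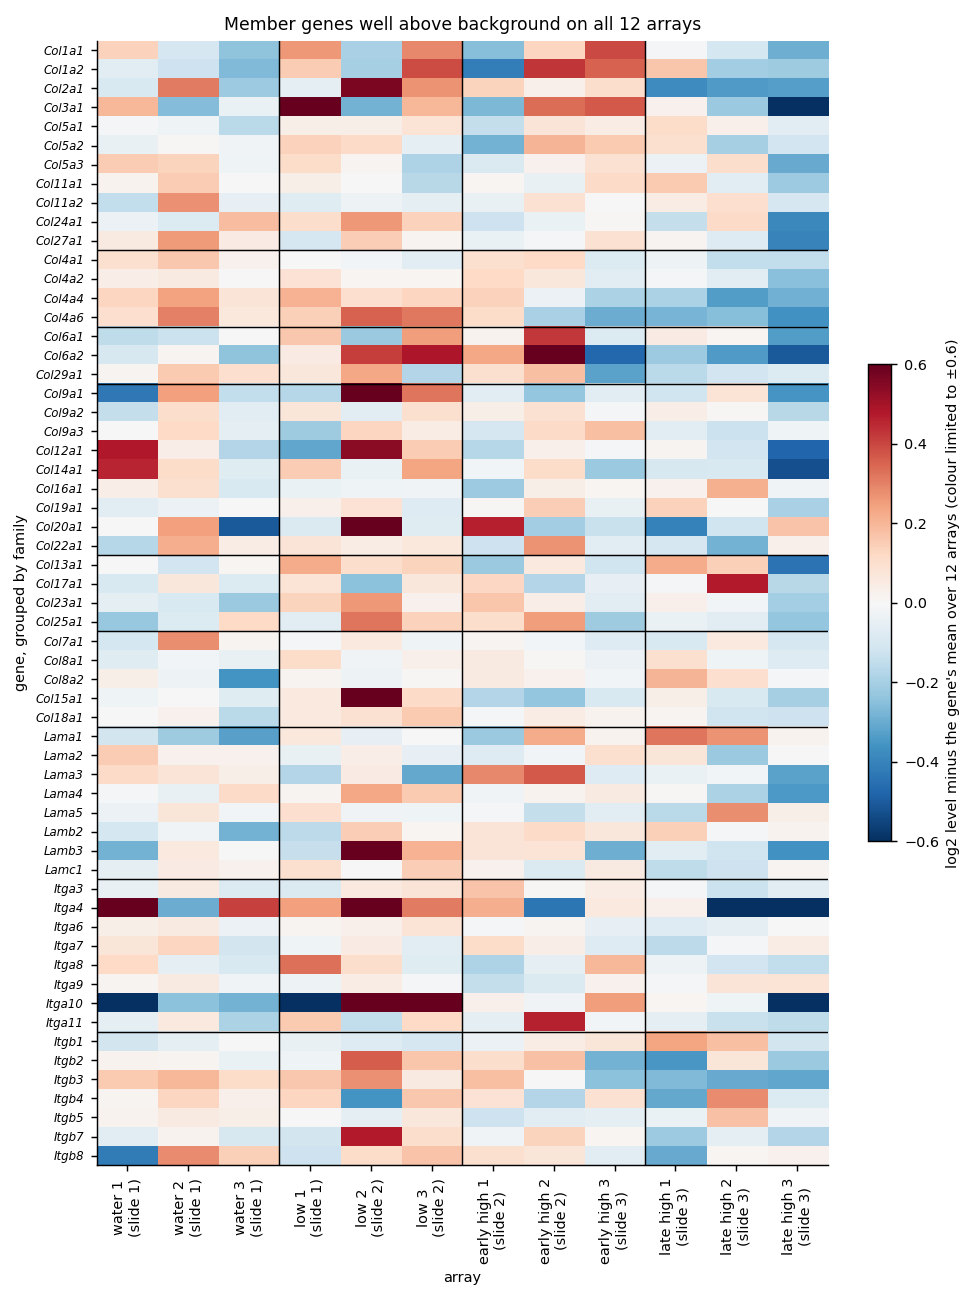
Log2 level of 59 of the 60 member genes that were well above background on all 12 arrays, each minus its own mean over the arrays (rows, grouped by family with black lines; columns, arrays with their slide). Col1a1, Col1a2 and Col3a1 change together from array to array, while Itgb3, Col4a4 and Col4a6 are low (blue) on the 4 arrays of slide 3, which include early high 3.

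The comparison of all 9 alcohol arrays with the 3 water arrays asks which members differ with drinking as such. Of the 67 genes, 2 laminin chains were higher at an unadjusted p under 0.05 and none was lower, in a background where 5.46% of 21482 gene names passed the same threshold and 3.67% passed it as higher. The median difference was 0.01 over the members and 0.02 over all gene names. After adjustment over all 32376 probes no member passed, nor did any other probe, and the smallest adjusted p was 0.819. By the methods' t-test, too, 2 members were under 0.05 before adjustment and 0 after it.

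Lama1, the alpha chain of laminin-111, was at -3.90, -4.01 and -4.12 on the water arrays. It was at -3.73, -3.84 and -3.79 in low drinkers, at -4.02, -3.57 and -3.77 in early high drinkers and at -3.47, -3.52 and -3.77 in late high drinkers. Only early high 1 lay within the range of the water arrays. The difference was 0.29 ± 0.10 (SE; unadjusted limma p = 0.018, adjusted p = 0.819; exact two-sided permutation p = 0.0227, with 0.00455 the smallest that 220 splits allow). Only slide 1 held both water and alcohol arrays, so a difference from water with slide as a fixed block rests on low 1 as the single alcohol array there. For early high drinkers it also takes in the step from low 2 and low 3 to early high 1 and early high 2 on slide 2, and for late high drinkers the step from early high 3 to the late arrays on slide 3 besides. For Lama1 over all alcohol arrays that value was 0.28 ± 0.18, which is low 1 minus the water mean. With quantile normalization the difference was 0.14 ± 0.22 and no longer passed, and that of low drinkers was -0.15.

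Lamb2, the beta chain of the laminins of vessel walls, was at -0.34, -0.26 and -0.52 in water. It was at -0.39, -0.09 and -0.22 in low drinkers, at -0.16, -0.12 and -0.17 in early high drinkers and at -0.09, -0.24 and -0.21 in late high drinkers. The early high arrays lay close together and above every water array, while low 1 lay among the water arrays. The difference was 0.18 ± 0.07 (SE; limma adjusted p = 0.819; exact two-sided permutation p = 0.0273). Without water 3 it was 0.11 and no longer passed, and without water 2 it was 0.24. Blocking on slide gave -0.02 ± 0.11, which again is low 1 alone against water. For Lamb2, alcohol and slide cannot be told apart.

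The other 8 laminin chains had differences between -0.10 and 0.52. Lamc1, the gamma chain of most laminins, differed by -0.01 with a 95% interval of -0.15 to 0.14, and Lama2, the alpha chain of the laminin made by muscle and by astrocyte end-feet, by -0.09 with an interval of -0.23 to 0.05. Lama5 differed by -0.01 (interval -0.19 to 0.17) and Lama4, the endothelial alpha chain, by -0.03 (interval -0.25 to 0.20). Lamb1-1, outside the rule, differed by 0.20 ± 0.09 (SE; limma adjusted p = 0.819).

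All 6 type IV collagen genes were below 0 on their brightest probes in this comparison, with a median of -0.20, and none of them passed the unadjusted threshold. Second probes gave 0.14 for Col4a4, 0.05 for Col4a6 and -0.05 for Col4a1. Col4a3 was well above background on 5 arrays and Col4a5 on 10. Of the 11 fibrillar collagens 5 were above and 6 below 0, between -0.16 and 0.20. Col1a1 differed by 0.09 with a 95% interval of -0.25 to 0.43 and Col3a1 by 0.05 with an interval of -0.46 to 0.55. Of the 19 integrin chains none passed. The integrin beta 1 chain Itgb1, the partner of most alpha chains, differed by 0.07 (interval -0.10 to 0.24), Itgb5 by -0.05 (interval -0.18 to 0.08), Itga6, a laminin receptor chain, by -0.02 (interval -0.12 to 0.08) and Itgb8 by -0.00 (interval -0.30 to 0.29).

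**Figure D2:**
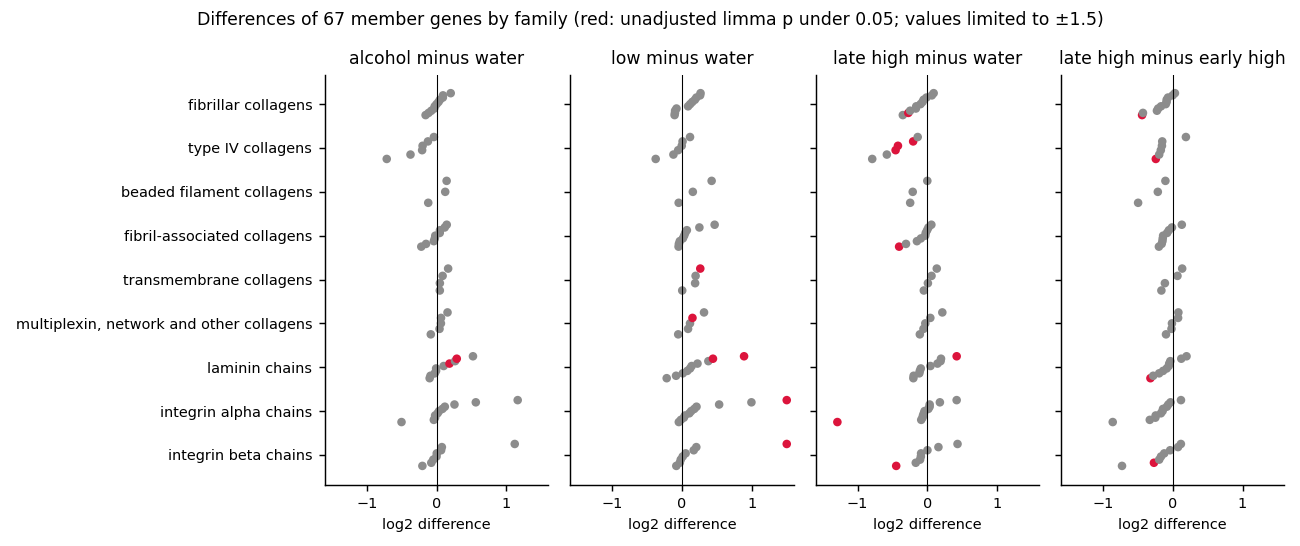
Log2 difference of each of the 67 tested member genes by family in 4 comparisons (each point is a gene on its brightest probe; red points passed an unadjusted limma p under 0.05; values beyond 1.5 are drawn at 1.5). Red points number 2 for alcohol against water, 6 for low drinkers, 8 for late high drinkers and 4 for late against early high drinkers.

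In low drinkers against water, 6 of 67 members were higher at an unadjusted p under 0.05 and none was lower, where 8.9% of 21002 gene names passed and 8.1% passed as higher. They included Itga2, Itgb6, Lamc3, Col23a1 and Col18a1. The first 3 of these were highest on low 2, the array with raised dim signal. Itga2, the alpha chain of a collagen receptor, was the only member past adjustment in any comparison (limma adjusted p = 0.0243), where 0.252% of gene names were. Its levels were -7.41, -3.92 and -4.58 in low drinkers and -7.07, -6.83 and -7.19 in water. The fit, however, left out low 1, the array that lay below the water arrays, and water 1, because their signal/noise ratios fell below 2. The call thus compared 2 low arrays with 2 water arrays. With no filter on low values the difference was 1.73 in place of 2.76, and the call was lost. The probe was well above background only on low 2, so its difference is a bound: Itga2 was at least 1.57-fold higher in low drinkers than in water. This bound rests on low 2, without which no low or water array measured the gene well above background and no fold is given. The call was also lost with quantile normalization and without any 1 of the water arrays, early high 2, early high 3, late high 1 or late high 3, and with slide as a fixed block no value could be estimated.

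Itgb6, an epithelial integrin chain, was likewise well above background on low 2 alone among these 6 arrays and was at least 1.53-fold higher in low drinkers (adjusted p = 0.514). Its levels in low drinkers were -6.87, -3.37 and -5.78, so this bound rests on low 2 as well. The fit left out low 1, the dimmest of the low arrays here, so the fitted difference of 2.11 rests on low 2 and low 3. It was 0.90 with low 3 alone and 3.31 with low 2 alone. Lamc3, a laminin gamma chain, was at -5.65, -3.96 and -5.31 in low drinkers and at -6.13, -5.51 and -5.95 in water, a difference of 0.89 ± 0.38 (SE; limma adjusted p = 0.538). It was 0.38 without low 2, 0.32 ± 0.21 with quantile normalization and 0.21 ± 0.48 with slide as a block, and passed in none of these. Without low 2 the count of members at an unadjusted p under 0.05 was 4, without low 1 it was 12 and without water 3 it was 1. The shares over all gene names in these fits are not given. Whether the raised dim signal of low 2 contributes to these differences was not tested. Of 6 blood and leukocyte markers 2 were higher in low drinkers, among them Cd3e by 0.73 (limma adjusted p = 0.039), and 1 was lower, with a median of -0.10 over the 6. Of 6 endothelial and 7 pericyte and smooth muscle markers 1 each was higher, Pecam1 by 0.47 and Myh11 by 0.59. The part of these cells in the members' values was not tested.

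Col23a1 and Col18a1 were well above background on all 12 arrays. Col23a1, a collagen that spans the cell membrane, was at -0.89, -0.76 and -0.996 in low drinkers, each above the water arrays at -1.08, -1.11 and -1.24. The difference was 0.26 ± 0.09 (SE; limma adjusted p = 0.514), and its next probe gave 0.22. Col18a1, the collagen whose end is cleaved to endostatin, was at -0.17, -0.14 and -0.07 in low drinkers and at -0.23, -0.21 and -0.39 in water. The difference was 0.15 ± 0.07 (SE; limma adjusted p = 0.55), with no overlap. With slide as a block, where low 1 is the single low array set against water, neither passed, at 0.26 ± 0.14 for Col23a1 and 0.11 ± 0.10 for Col18a1.

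In early high drinkers against water, 3 of 67 members passed the unadjusted threshold, where 4.82% of gene names did, and the smallest adjusted p of a member was 0.89. Lamb2 was higher by 0.22 ± 0.09 and Col4a6, a type IV chain, was lower by 0.28 ± 0.11 on the log2 scale. With slide as a fixed block neither passed, at -0.01 ± 0.16 for Lamb2 and -0.39 ± 0.18 for Col4a6, and the second Col4a6 probe gave 0.04. Of 5 anterior pituitary markers 4 were lower in this comparison, with a median of -1.23 over the 5, and their part in the members' values was not tested. Col4a6 is described with the late high drinkers. Itga2 was below that mark on every array of both groups and is given no fold.

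In late high drinkers against water, 8 of 67 members passed the unadjusted threshold, where 15.9% of gene names did. Lama1 alone was higher, and 7 were lower, against 8.87% of gene names: Col4a4, Itgb3, Col4a6, Col4a1, Itga4, Col14a1 and Col27a1. None passed adjustment, and the smallest adjusted p of a member was 0.105, for Col4a4. The members' median difference was -0.06, against 0.01 over all gene names, and 10 members lay below every water array without overlap, or 14.9%, against 13.5% of gene names. Of 5 anterior pituitary markers 2 were lower in this comparison, with a median of -0.62 over the 5. Of 6 blood and leukocyte markers 3 were lower, with a median of -0.34 over the 6. Their part in the members' values was not tested.

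The type IV collagens showed the largest family median, at -0.44 over 6 genes, of which 3 passed the unadjusted threshold. Col4a4, a chain of the collagen IV net of filtering and sensory basement membranes, was at -0.72, -0.60 and -0.77 in water and at -1.04, -1.18 and -1.13 in late high drinkers. In low drinkers it was at -0.64, -0.75 and -0.72, and in early high drinkers at -0.71, -0.88 and -1.04. The late group lay below every water and low array, and early high 3, which shared slide 3 with the late arrays, lay with them. The difference from water was -0.42 ± 0.09 (SE; limma adjusted p = 0.105). The late arrays were 0.08 below early high 3 within slide 3, and with slide as a block the difference from water was -0.09 ± 0.18. A second, dimmer Col4a4 probe gave 0.25.

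Col4a6, whose product pairs with the Col4a5 chain in smooth muscle basement membranes, was also low on slide 3. It was at -1.86, -1.67 and -1.90 in water, at -1.82, -1.61 and -1.65 in low drinkers, at -1.86, -2.16 and -2.27 in early high drinkers and at -2.25, -2.22 and -2.33 in late high drinkers. Here early high 2, on slide 2, was low as well. The late difference was -0.45 ± 0.11 (SE; limma adjusted p = 0.119). Within slide 2 the early high arrays were 0.38 below the low arrays, and within slide 3 the late arrays differed from early high 3 by -0.00037. With slide as a block the late difference was -0.39 ± 0.23. A second Col4a6 probe, also well above background on all 12 arrays, gave 0.02, so the probes of this gene disagreed.

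Itgb3, the beta chain of the vitronectin receptor and of the platelet fibrinogen receptor, was at -1.35, -1.31 and -1.39 in water and at -1.77, -1.80 and -1.82 in late high drinkers. It was at -1.34, -1.23 and -1.45 in low drinkers and at -1.32, -1.51 and -1.75 in early high drinkers. The 4 arrays of slide 3, early high 3 among them, lay below all 8 arrays of the other slides. The late difference from water was -0.45 ± 0.10 (SE; limma adjusted p = 0.114) and, with slide as a block, -0.12 ± 0.18. A second Itgb3 probe, well above background on all 12 arrays, gave -0.09. The summed level of the 6 blood and leukocyte markers, 5 of them well above background on all 12 arrays, lay between 6.22 and 6.67 in late high drinkers and between 6.91 and 7.20 in water, and was 7.04 on early high 3, and its part in these values was not tested. For Col4a4 and Itgb3, late high drinking and slide 3 cannot be told apart with these arrays.

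**Figure D3:**
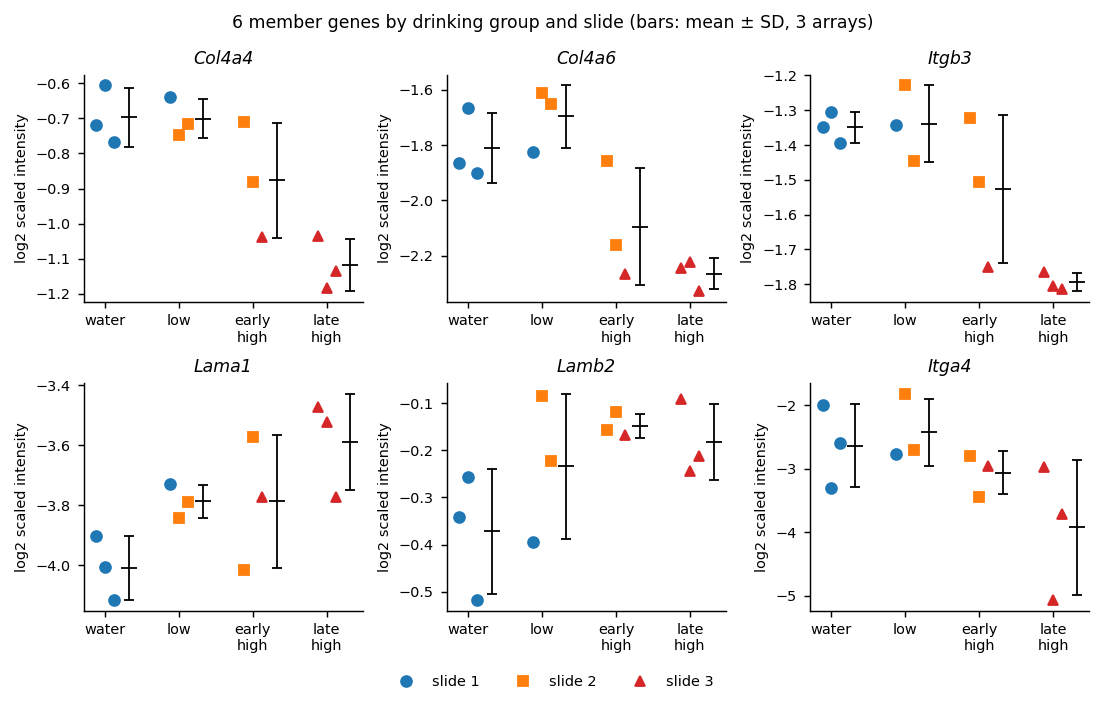
Log2 scaled intensity of 6 member genes on each array, by drinking group (x axis) and slide (marker and colour), with the mean ± SD of the 3 arrays of each group as bars. For Itgb3 and Col4a4 the early high array on slide 3 (red triangle) sits with the late high arrays, and for Lama1 8 of 9 alcohol arrays sit above the mean of the water arrays.

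Col4a1, which with Col4a2 makes the ubiquitous collagen IV trimer of vessel walls, was lower in late high drinkers by 0.20 ± 0.07 on the log2 scale (SE; limma adjusted p = 0.203). It was at -0.26, -0.37 and -0.38 in late high drinkers and at -0.13, -0.07 and -0.20 in water. In the fit with slide as a block the difference was 0.03 ± 0.15. The summed level of the 6 endothelial markers lay between 3.77 and 4.15 in late high drinkers and between 3.94 and 4.10 in water, and all 6 were well above background on all 12 arrays.

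Itga4, the alpha chain of the receptor by which leukocytes hold to vessel walls, varied more than any other member that was well above background on all 12 arrays. It was at -1.99, -3.31 and -2.60 in water, at -2.76, -1.81 and -2.70 in low drinkers, at -2.79, -3.44 and -2.95 in early high drinkers and at -2.98, -5.07 and -3.71 in late high drinkers. The difference between late high drinkers and water was -1.29 ± 0.52 (SE; limma adjusted p = 0.269), and late high 1 lay within the water range. Without late high 2 the difference was -0.71 and no longer passed, and with slide as a block it was -1.96 ± 1.31. Over all alcohol arrays it was -0.50 ± 0.53, with a 95% interval of -1.66 to 0.65 (exact two-sided permutation p = 0.391). Its next probe, well above background on 11 arrays, gave -0.69 for late high drinkers and -0.46 for all alcohol arrays. The leukocyte marker Ptprc was at -2.96, -2.63 and -2.70 in late high drinkers and at -2.67, -2.51 and -2.65 in water, and its part in the Itga4 values was not tested.

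Lama1 was higher in late high drinkers by 0.42 ± 0.12 (SE; limma adjusted p = 0.152), with all 3 late arrays above all 3 water arrays. It no longer passed with slide as a block, at 0.48 ± 0.30, or with quantile normalization, at 0.44 ± 0.23. Lamb1-1, whose product joins the Lama1 chain in laminin-111, was higher by 0.32 ± 0.10 (SE; limma adjusted p = 0.179). The remaining members below the threshold were Col14a1, a fibril-associated collagen, at -0.40 ± 0.16, and Col27a1, a fibrillar collagen of cartilage, at -0.27 ± 0.11. When slide was a block, Col14a1 was at -0.08 ± 0.40 and Col27a1 at -0.57 ± 0.27. With quantile normalization they were at -0.34 ± 0.28 and -0.23 ± 0.10, and neither passed in either fit.

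High drinkers, early and late together, were compared with low drinkers to ask about the amount drunk. Of 67 members 10 were lower at an unadjusted p under 0.05 and none was higher, where 14.4% of 21002 gene names passed and 11.3% of the 21002 passed as lower. No member passed adjustment, where 0.0286% of gene names did. Of the 67 differences 55 lay below 0, as did 64% of gene names, with a median of -0.11 against -0.04 over all gene names. Col4a6 was at -0.48 ± 0.10 (SE; unadjusted limma p = 0.000542, adjusted p = 0.10), with all 6 high arrays below all 3 low arrays (exact two-sided permutation p = 0.0119, the smallest that 84 splits allow). With slide as a block it was -0.38 ± 0.14. The second Col4a6 probe, also well above background on all 12 arrays, gave -0.06 ± 0.10. Itga4 was at -1.07 ± 0.45 and Itga2 at least 1.66-fold lower, a bound that rests on low 2. The others were Col15a1, Col2a1, Itgb3, Col4a4, Col24a1, Lama4 and Col18a1, between -0.41 and -0.13. With slide as a block Itgb3 was at -0.10 ± 0.11 and Col4a4 at -0.10 ± 0.11. In that fit Col24a1 was at -0.35 ± 0.18, Col18a1 at -0.15 ± 0.10 and Itga4 at -1.35 ± 0.79, not smaller than without the block. All of these genes no longer passed.

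Of these 10 members 8, all but Col4a4 and Col18a1, had their highest level of the 12 arrays on low 2, the array with raised dim signal. Col15a1 is a multiplexin of vessel basement membranes and Col2a1 the fibrillar collagen of cartilage. Col15a1 was at -3.94, -3.32 and -3.88 in low drinkers and between -4.24 and -3.97 in high drinkers. Its difference was -0.15 ± 0.08 with quantile normalization and no longer passed, nor did those of Col24a1 and Lama4. Without low 2 the count of lower members was 6, without low 1 it was 18, and without low 1 5 members also passed adjustment. The shares over all gene names in these fits are not given, so these counts are not read as a result about the members. In the same comparison all 5 anterior pituitary markers were lower, with a median of -1.42, as were 3 of 6 blood and leukocyte markers, with a median of -0.35 over the 6, and 2 of 6 choroid plexus markers, with a median of -0.42. The summed choroid plexus level, with 3 of 6 markers well above background on all 12 arrays, lay between 0.65 and 1.01 in low, 0.51 and 0.71 in early high and 0.66 and 0.74 in late high drinkers. The part of these cells in the members' values was not tested.

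Late and early high drinkers differed in 4 of 67 members at an unadjusted p under 0.05, all lower in late drinkers, where 12.8% of gene names passed and 7.91% passed as lower. They were Col2a1 (-0.44 ± 0.16), Lama3 (-0.32 ± 0.13), Itgb3 (-0.27 ± 0.10) and Col4a4 (-0.24 ± 0.09), and none passed adjustment. Col2a1 was at -2.78, -2.74 and -2.73 in late and at -2.27, -2.37 and -2.30 in early high drinkers. Within slide 3, where early high 3 is the single early array, the late arrays were 0.45 below it for Col2a1, against 0.05 for Lama3, 0.05 for Itgb3 and 0.08 for Col4a4. The second probes gave -0.31 for Col2a1, -0.59 for Lama3, -0.10 for Itgb3 and 0.26, the opposite sign, for Col4a4. Without early high 1 the Itgb3 difference was -0.17 and no longer passed. Markers of other cells differed in this comparison too: 2 of 7 fibroblast markers were lower, with a median of -0.75 over the 7, and 3 of 6 blood and leukocyte markers were lower, with a median of -0.44. Of 5 anterior pituitary markers 2 were higher, with a median of 0.70 over the 5. Their part in the members' values was not tested. An exact permutation test of 3 arrays against 3 cannot give a p below 0.10.

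The genes of type I and type III collagen, the main fibrillar collagens of connective tissue, were compared across all 12 arrays because their products are laid down in the same fibres. Col1a1 was at -0.01, -0.25 and -0.39 in water, at 0.11, -0.34 and 0.14 in low drinkers, at -0.41, -0.02 and 0.25 in early high drinkers and at -0.16, -0.26 and -0.44 in late high drinkers. Col1a2 was at 0.77, 0.71 and 0.57 in water, at 0.99, 0.64 and 1.23 in low drinkers, at 0.42, 1.27 and 1.19 in early high drinkers and at 1.00, 0.63 and 0.62 in late high drinkers. Col3a1 was at -0.51, -0.97 and -0.75 in water, at -0.11, -0.99 and -0.51 in low drinkers, at -0.98, -0.38 and -0.34 in early high drinkers and at -0.69, -0.93 and -1.36 in late high drinkers. Arrays above and below the gene's mean occurred within both the low and the early high group, and the 4 groups overlapped for all 3 genes.

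Across the 12 arrays Col1a1 and Col1a2 had r = 0.87 and rho = 0.86 (permutation p = 0.0005 and 0.00057; adjusted over 6 pairs 0.0015 and 0.00171). Col1a1 and Col3a1 had r = 0.87 and rho = 0.89 (permutation p = 0.0003 and 0.00028; adjusted 0.0015 and 0.00168). Without the 2 arrays farthest from the median of Col1a1, low 3 and early high 3, r was 0.79 and 0.91. After subtraction of each slide's mean it was 0.89 and 0.91. Both relations kept their size within slides.

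Markers of meningeal and perivascular fibroblasts moved with them. Of the 8 markers 7 were well above background on all 12 arrays, and Crabp2 on none. Their summed level lay between 2.88 and 3.08 in water, 2.77 and 3.37 in low drinkers, 2.65 and 3.70 in early high drinkers and 2.67 and 3.04 in late high drinkers. The sum and Col1a1 were on the same side of their own means on 12 of 12 arrays, the sum and Col3a1 on 11 and the sum and Col1a2 on 10. Ogn, a small matrix proteoglycan, was highest on early high 2, low 3, early high 3 and low 1, at -0.64, -1.01, -1.18 and -1.61, and was between -3.21 and -1.97 on the other 8 arrays. Slc13a4, a sulfate transporter, was at 1.13, 0.54, 0.34 and 0.23 on the same 4 arrays and below 0 on the rest. The part of these cells in the collagen values was not tested.

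**Figure D4:**
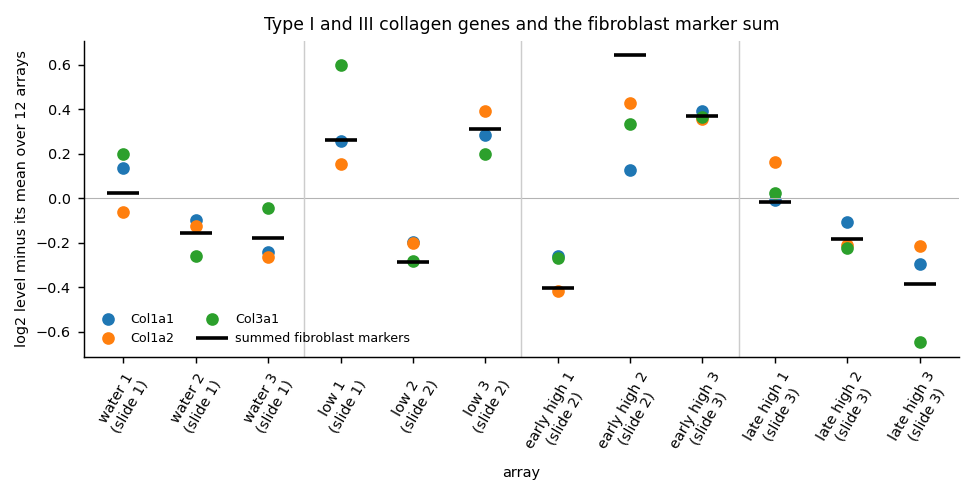
Log2 level of Col1a1, Col1a2 and Col3a1 (coloured points) and of the summed fibroblast markers (black bars) on each array, each minus its own mean over 12 arrays. All 4 are above their means on low 1, low 3, early high 2 and early high 3, and below on water 2, water 3, low 2, early high 1, late high 2 and late high 3.

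The other 4 pairs did not hold as firmly. Col4a1 and Col4a2 had r = 0.77 and rho = 0.84 (permutation p = 0.00118 and 0.00109; adjusted 0.00236 and 0.00218), r = 0.80 without water 2 and late high 3, and r = 0.51 after subtraction of slide means (permutation p = 0.0852). Col6a1 and Col6a2, chains of type VI collagen, had r = 0.60 and rho = 0.54 (permutation p = 0.0366 and 0.0743; adjusted 0.0549 and 0.111). Without early high 2 and late high 3 r was 0.19, so that relation, before subtraction of slide means, rests on those arrays. After that subtraction r was 0.62, and 0.58 without early high 2 and low 2 (permutation p = 0.0335 and 0.0804). Lamb2 and Lamc1, which share a laminin trimer, had r = -0.32 and rho = -0.43 (permutation p = 0.312 and 0.168; adjusted 0.375 and 0.202). Itga1 and Itgb1, which share a collagen receptor, had r = -0.06 and rho = 0.12 (permutation p = 0.858 and 0.717; adjusted 0.858 and 0.717).

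The sequence before the start of the collagen genes is shown for Col1a2 and Col3a1, which each went with Col1a1 across arrays, and for Col4a6, whose 6 high arrays all lay below the low arrays. Of the 70 members, 50 had an entry among the RefSeq promoters of GRCm38.p6, with 56 starts in all. The 250 bases before each start were searched on both strands for the TATA box (TATAAA), the CCAAT box (CCAAT) and the GC box (GGGCGG), and matches are in capitals. Of all 32851 promoters, 12.4% held TATAAA, 33.8% CCAAT and 32.7% GGGCGG. Of the 56 of members, 5, 14 and 26 did, or 8.93%, 25% and 46.4%.
Col1a2 (chr6:4505368-4505617, plus strand): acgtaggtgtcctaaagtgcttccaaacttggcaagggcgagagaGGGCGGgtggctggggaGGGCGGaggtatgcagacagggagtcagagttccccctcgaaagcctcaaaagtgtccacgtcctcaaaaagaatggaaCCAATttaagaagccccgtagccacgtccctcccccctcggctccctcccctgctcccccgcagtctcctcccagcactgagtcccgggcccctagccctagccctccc
Col3a1 (chr1:45311288-45311537, plus strand): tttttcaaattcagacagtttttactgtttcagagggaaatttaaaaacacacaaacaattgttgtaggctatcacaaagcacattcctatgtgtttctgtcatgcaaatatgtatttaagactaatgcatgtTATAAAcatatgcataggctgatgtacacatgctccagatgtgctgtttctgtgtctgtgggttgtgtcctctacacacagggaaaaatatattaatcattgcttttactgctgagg
Col4a6 (chrX:141474077-141474326, minus strand): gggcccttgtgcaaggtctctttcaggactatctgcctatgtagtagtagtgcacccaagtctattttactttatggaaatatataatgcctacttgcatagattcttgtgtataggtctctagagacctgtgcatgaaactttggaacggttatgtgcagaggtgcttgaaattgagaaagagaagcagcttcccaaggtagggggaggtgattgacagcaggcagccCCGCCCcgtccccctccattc
The Col1a2 window held a CCAAT box 109 bases before the start and GC boxes at 205 and 188 bases. The Col3a1 window held a TATA box at 117 bases and neither of the other motifs in these 250 bases. The Col4a6 window held 1 GC box, on the other strand, 21 bases before the start. In this annotation the starts of Col4a1 and Col4a2 on chromosome 8 lay 21 bases apart on opposite strands, and those of Col4a6 and Col4a5 on chromosome X lay 1343 bases apart, also on opposite strands.

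Other genes of the same pathway were read from lists of enzymes, matrix partners, proteases, receptors and adaptors. In alcohol against water none passed adjustment, and 5.46% of all gene names passed the unadjusted threshold. Of 18 collagen modifying enzymes tested none passed the unadjusted threshold, and of 14 matrix partners 3 were higher: Fn1, fibronectin, by 0.47, Tnc, tenascin C, by 0.37, and Fbln1, fibulin 1, by 0.27. Of 11 proteases and inhibitors Timp3, an inhibitor, was higher by 0.13 and Mmp14, a membrane protease, was at -0.39. Of 9 other receptors 3 were higher, the collagen receptors Ddr1 and Ddr2 by 0.19 and 0.33 and Sdc4, syndecan 4, by 0.33. Of 6 integrins outside the numbered names and 14 adaptors none passed. In late high drinkers against water, where 15.9% of gene names passed and all late arrays lay on slide 3, 3 of 9 receptors were higher: Sdc4 by 0.60 (limma adjusted p = 0.072), Sdc3 by 0.28 and Ddr1 by 0.27. Of 11 proteases and inhibitors 2 were lower, Mmp14 at -0.57 and Timp1 at -0.37. Of 14 matrix partners Hspg2, perlecan, was at -0.18, of 17 modifying enzymes Pcolce2 was at 0.35, and of 14 adaptors Vcl, vinculin, was at 0.15. The other comparisons are not given in full. In early high drinkers 4 of 9 receptors were higher, where 4.82% of gene names passed. In low drinkers 3 of 17 enzymes were higher, against 8.1% of gene names, and in high against low 3 were lower, against 11.3%. In late against early 4 of 14 matrix partners were lower, against 7.91%.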

How the data were processed

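Hypothalamic RNA of 3 pools of water mice and 9 pools of alcohol mice was measured on 12 Agilent 1-colour arrays. The authors deposited scanner output with signal intensity corrected for background by Agilent Feature Extraction (10.5.1.1 in the files), unscaled between arrays, and a value table of the same intensity. Here log2 intensity minus each array's 75th percentile was used. Values were left out where a spot was marked as a non-uniform outlier or its signal/noise ratio fell below 2, and replicate spots were averaged. A probe needed values on 2 of 3 water and 5 of 9 alcohol arrays, or on 2 of 3 in each group. Tests were made in limma 3.58.1 (lmFit, eBayes; R 4.3.3), with Benjamini-Hochberg adjustment over all probes. The adjusted threshold was 0.05. Differences that no values determined once slide was a block were left out. Background shares use the brightest probe of each gene name. The steps were tested on simulated data.

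The members and lists were chosen with earlier results of these data known. Named genes were those at an unadjusted p under 0.05 (up to 3 in each direction and comparison), the pairs, Itga4, a fixed core list and members never well above background. Others named beside them were chosen after their values were seen. Pair correlations used 100000 permutations. Positions are mm9 as in the files, and promoters are RefSeq, GRCm38.p6. Alternatives were scaling, normexp with offset 50, the authors' table, filters, probe, slide and replicate blocks, the methods' t-test, a fold threshold, and each array left out. The number of arrays limits the precision. The result of 1 gene is not reported here.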

Additional observations from a re-analysis of the deposited data

Results flagged for a closer look

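Among the members named in the text, the highest or lowest of the 9 alcohol arrays lay far from the others in 3 of 35 genes, and chance gives about 1 in 20. Col4a2 was lowest on late high 3, at 0.64 against 0.82 for the next array, a gap of 0.498 of the whole range. Itgb6 was highest on low 2, at -3.37 against -5.44, a gap of 0.573 of the range. Lamc3 was also highest on low 2, at -3.96 against -5.03, a gap of 0.594 of the range. Both of these are dim probes and low 2 is the array with raised dim signal. The cause was not tested.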

How the results depend on the processing

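Counts are of member genes at an unadjusted p under 0.05. Alcohol against water (2) gave 1 with no scaling or slide as a random block, 0 with slide as a fixed block, 4 with the second brightest probe and 1 with a fold threshold. Low drinkers against water (6) gave 3 with quantile normalization or slide as a random block and 1 with slide as a fixed block, where Itga2 and Itgb6 against water could not be estimated. Early high drinkers (3) gave 1 and late high drinkers (8) gave 4 with slide as a fixed block, and late high drinkers gave 4 with the second brightest probe. High against low drinkers (10) gave 16 with normexp, and late against early (4) gave 1 with each array's median as scale or slide as a fixed block. The cause was not tested.

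Leaving out 1 array gave 0 to 6 for alcohol (0 without water 3, 6 without water 1), 1 to 12 for low drinkers (1 without water 3, 12 without low 1), 0 to 6 for early (0 without early high 2, 6 without early high 1), 7 to 10 for late, 6 to 18 for high against low (6 without low 2, 18 without low 1) and 2 to 8 for late against early (2 without late high 2, 8 without early high 3 or late high 1). Of adjusted calls, low drinkers had 0 to 3 and high against low 0 to 5, and the other comparisons 0. The adjusted call of Itga2 in low drinkers (1) was 0 with quantile normalization, no filter, probes well above background throughout, the second brightest probe or the replicate block. High against low gave 1 adjusted call with array medians or normexp.

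The replicate number as a block gave 4 for alcohol. Of 18 pairs of arrays with the same number 3 correlated over 0.1, and 5 of 12 arrays matched best with their own number. These 3 pairs were water 1 with low 1, low 2 with early high 2, and early high 3 with late high 3. Each of them lay on a single slide, and the arrays of the other pairs lay on different slides. The labels do not say that arrays of equal number are paired.

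With slide as a fixed block, Lamb2 was at -0.022 for all alcohol arrays and -0.0058 for early high drinkers, and Itga4 at -0.13 for low drinkers. Itga4 in low drinkers was also at -0.19 on its second probe, and between -0.13 (without water 2) and 0.53 (without water 1) with 1 array left out, with -0.098 without low 2. Col4a6 on its second probe was at 0.037 in early and 0.018 in late high drinkers. Of the pairs, Col4a1 and Col4a2 had r = 0.51 within slides, and Col6a1 and Col6a2 had 0.76 with quantile normalization. Itga1 and Itgb1 had 0.049 within slides, 0.41 with quantile normalization and 0.25 unscaled, and Lamb2 and Lamc1 had 0.0155 with array medians and 0.099 unscaled. The median level of members in low drinkers was 0.0093 with quantile normalization, -0.022 with array medians and -0.0019 unscaled, and unscaled it was -0.020 in early and 0.029 in late high drinkers. Dim signal limits Itga2, Itgb6, Lamc3, Col4a3 and Col4a5.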
